A study of Mus musculus with 24 samples.

Results

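The imprinted fetal growth genes described here are *H19*, *Igf2*, *Igf2r*, *Dlk1*, *Meg3*, *Peg3*, *Plagl1*, *Mest* and *Grb10*, 9 of the 24239 genes in a table of normalized counts from whole mouse hearts. They were chosen by gene symbol, with the value of *H19* in control hearts after pressure overload already known. All 9 had a row. The hearts came from male mice and were taken 12 weeks after transverse aortic constriction (TAC), which narrows the aorta and overloads the left ventricle, or after a Sham operation. The 4 groups were cSirt5KO TAC, cSirt5KO Sham, Control TAC and Control Sham, with 6 hearts each, and each library carried an animal number of its own in the labels. cSirt5KO mice lack *Sirt5*, which encodes a mitochondrial deacylase, in cardiomyocytes through a hemizygous *Myh6*-cre transgene active in cardiac muscle cells, while Control mice carried the *Sirt5* transgenic allele without the recombinase. By this design Cre goes with the deletion, so the effects of the deletion and of the recombinase cannot be told apart. In 2 libraries labelled cSirt5KO TAC the *Sirt5* count was not low.

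In imprinted genes only the copy from 1 parent is normally transcribed, and DNA methylation laid down in egg or sperm marks which copy that is. Several of them act on a shared axis of growth before birth: *Igf2* encodes a growth factor, *Igf2r* a receptor that removes it, and *Grb10* an adaptor that dampens insulin and IGF receptor signalling. Most are abundant in the fetus and are turned down after birth in many organs, including the heart.

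Of the 9 genes, *H19* and *Plagl1* were higher in cSirt5KO TAC than in Control TAC hearts, and none was called between TAC and Sham in cSirt5KO hearts or between genotypes after Sham. For *H19* the first of these is a description, since it rests on the Control TAC hearts by which the gene was chosen. The comparison of *Plagl1* uses the same hearts, so its p-value is not independent of that choice. *H19* is a long noncoding RNA transcribed from the maternal copy of the *Igf2* locus. *Plagl1* (also called *Zac1*) encodes a zinc finger transcription factor that, in mouse cells, can raise other imprinted genes, *H19* among them.

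Sequences that bear on these 2 genes are shown first. The first exon of *H19* contains the precursor of miR-675, and the miRNA is cut from the same transcript that was counted. The mature miRNAs were not measured here. Both are given from RefSeq on build GRCm38.p6, on the minus strand, with the seed (bases 2 to 8, which pair with targets) in capitals.

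mmu-miR-675-5p (chr7:142577112-142577133): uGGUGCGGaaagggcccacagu
mmu-miR-675-3p (chr7:142577078-142577099): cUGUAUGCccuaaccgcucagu

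The 2 arms have different seeds, and neither seed occurs in another of the 1679 mature mouse miRNAs searched. *Plagl1* is imprinted through a CpG-rich promoter that is methylated on the maternal copy, so a promoter of this gene is shown with its CpG sites. In the RefSeq promoter table (GRCm38.p6, 250 bases before to 50 after a gene's start), 8 of the 9 genes had an entry, with 15 promoters in all, and *H19* was the gene without one. The *Plagl1* promoter lies on the plus strand, held 26 CpG dinucleotides (capitals) and had a GC content of 70.7%. The median over all 32851 promoters was 7 CpG and 52.7% GC.

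Plagl1 promoter (chr10:13090582-13090881): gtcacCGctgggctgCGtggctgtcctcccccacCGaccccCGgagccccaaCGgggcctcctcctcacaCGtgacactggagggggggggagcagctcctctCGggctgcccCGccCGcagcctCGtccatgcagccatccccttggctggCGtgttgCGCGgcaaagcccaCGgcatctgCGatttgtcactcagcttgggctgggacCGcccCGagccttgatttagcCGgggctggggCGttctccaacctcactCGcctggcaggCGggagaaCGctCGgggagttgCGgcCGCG

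GGGGCCCC, which reads the same on both strands and is known as a binding sequence of the Plagl1 protein, was searched in the same promoters. Of the 15 promoters it was found in that of *Peg3*, which is shown on the minus strand with the match in capitals. It was present in 354 of all promoters (1.08%). A match describes the letters only.

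Peg3 promoter (chr7:6730370-6730669): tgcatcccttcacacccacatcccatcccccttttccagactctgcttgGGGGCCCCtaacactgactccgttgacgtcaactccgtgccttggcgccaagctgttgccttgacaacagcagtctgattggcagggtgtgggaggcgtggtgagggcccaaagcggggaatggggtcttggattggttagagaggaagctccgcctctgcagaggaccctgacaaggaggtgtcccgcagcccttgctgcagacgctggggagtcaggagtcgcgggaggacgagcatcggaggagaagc

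The libraries held 22523629 to 35834826 recovered reads each, obtained by dividing the normalized counts by the value of 1 read. The 8 cardiomyocyte markers were present throughout, with a mean log2 value of 16.6 to 17.4 in every heart. *Sirt5* itself averaged 304.7 ± 324.8 normalized counts in cSirt5KO TAC and 697.3 ± 102 in Control TAC hearts (SD, n = 6 each). The libraries labelled cSirt5KO TAC replicates 2 and 4 held 886 and 499 counts of *Sirt5*, against a range of 388 to 807 in Control hearts, so *Sirt5* goes against the label in both. Control TAC replicate 2 stood apart with 23.4% of its reads in ribosomal RNA and 7SK genes. By their share of antisense reads the libraries formed 2 sets: set 1 had 10 libraries (2 cSirt5KO TAC, 4 cSirt5KO Sham, 2 Control TAC and 2 Control Sham) and set 2 had 14. The numbers in the labels fell in 3 ranges that were spread unevenly over the groups. From lowest to highest range, cSirt5KO TAC had 2, 4 and 0 hearts and cSirt5KO Sham 0, 2 and 4. Control TAC had 4, 0 and 2, and Control Sham 4, 2 and 0. Only the lowest range occurred in both TAC groups and only the middle range in both Sham groups. Genotype and range can therefore not be fully told apart.

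Levels between genes were compared as RPKM, the recovered reads scaled here to exon length and library total. The union of annotated exons was used, which lowers the value of a gene with many long transcripts such as *Meg3*. *Igf2r*, the cation-independent mannose 6-phosphate receptor, had the highest level at 25.5 ± 4.10 over all 24 hearts (SD). *Grb10* followed with 9.5 ± 2.6 and *H19* with 6.48 ± 3.81, and the ranges of these 2 overlapped. *Mest* (0.824 ± 0.294), *Peg3* (0.782 ± 0.272), *Meg3* (0.665 ± 0.207) and *Plagl1* (0.415 ± 0.155) formed a lower group whose neighbours differed by less than 1 SD of either, except that *Plagl1* lay more than 1 SD below *Meg3*. *Igf2*, at 0.0621 ± 0.0340, was far below its receptor, and *Dlk1*, which encodes a Notch-related membrane protein of progenitor cells, was close to absent at 0.00946 ± 0.0135.

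**Figure D1:**
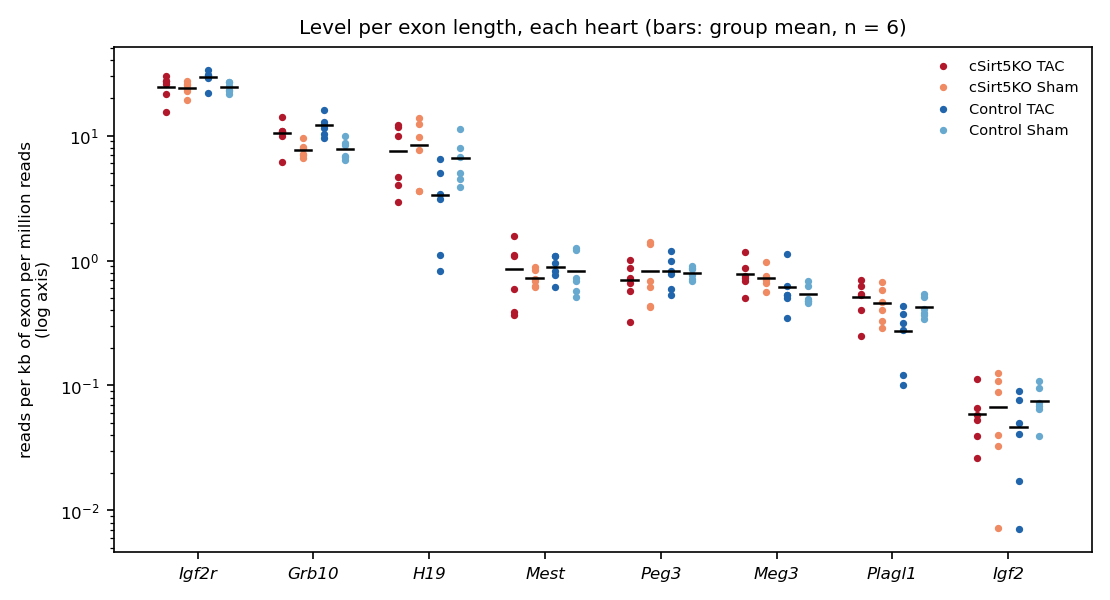
RPKM (reads scaled to exon length and library total, vertical log axis) for 8 of the 9 genes, one point per heart and a bar at each group mean (n = 6), *Dlk1* being left out because many libraries held 0 reads. *Igf2r* lies at the top with 15.5 to 33.5 over the 24 hearts, and *Igf2* lies at the bottom.

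At the *H19* and *Igf2* locus on chromosome 7 (GRCm39), *H19* (ENSMUSG00000000031) spans 142129266 to 142131880 on the minus strand. *Igf2* (ENSMUSG00000048583) lies 72.6 kb away on the same strand, from 142204503 to 142220553. Both share enhancers, and an insulator between them directs these to *H19* on the maternal copy and to *Igf2* on the paternal copy.

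*H19* had a lowest, median and highest normalized count of 273, 546 and 912 in cSirt5KO TAC hearts, against 61.2, 260 and 501 in Control TAC hearts. All 6 cSirt5KO TAC values lay above the Control TAC median, but the groups overlapped, with 3 of the 6 above every Control TAC heart. The difference on the log2 scale was 1.26 with a standard error (SE) of 0.42, or 2.40-fold (adjusted p = 0.0686), from limma on log2(normalized count + 1) with Benjamini-Hochberg adjustment over all 24239 genes. A gene was called at an adjusted p under 0.1 with a change of more than 1.5-fold, and *H19* lay past both limits. Because *H19* was chosen for its low values in these same Control TAC hearts, its p-value is not an independent test and is given as a description. Of the other 8 genes, 1 (*Plagl1*) was called, where 1.93% of all genes were called higher and 3.25% in either direction, and nothing is read from that count. Fewer cells that express a gene and less of its RNA per cell cannot be told apart in bulk tissue.

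The difference in *H19* was uneven between the library sets. In set 1 the values were 891 and 912 in cSirt5KO TAC hearts and 338 and 61.2 in Control TAC hearts. In set 2 they were 747, 344, 302 and 273 in cSirt5KO TAC hearts and 239, 127, 281 and 501 in Control TAC hearts, with wide overlap. The log2 fold change was 2.64 within set 1 (adjusted p = 0.285) and 0.58 within set 2 (adjusted p = 0.552, limma), so the call was not made within either set. It was also lost with the range of animal numbers as a covariate (log2 fold change 1.02, adjusted p = 0.246) and without any 1 of cSirt5KO TAC replicates 1, 5 and 6 or Control TAC replicates 2 and 6, where it ranged from 0.91 without Control TAC replicate 6 to 1.15 and the adjusted p from 0.114 to 0.202. Control TAC replicate 2, the library with 23.4% ribosomal RNA and 7SK reads, held the second lowest *H19* of its group (127), and without it the log2 fold change was 1.12 (adjusted p = 0.142). With scaling without mitochondrial, ribosomal and 7SK reads the call of *H19* was kept. Beyond these fits, the part of that library's RNA makeup in the result was not tested. Without the 2 cSirt5KO TAC libraries whose *Sirt5* was not low, *H19* was 1.63 higher on the log2 scale (adjusted p = 0.0729).

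In cSirt5KO hearts *H19* was not called between TAC and Sham. The lowest, median and highest counts were 273, 546 and 912 after TAC, against 271, 683 and 1071 after Sham. These ranges coincided at the low end, and the log2 fold change was −0.23 (SE 0.42, adjusted p = 0.871, limma). Its 95% interval ran from −1.05 to 0.58, so a fall of that size is not excluded. Over the alternative ways of fitting the value ranged from −0.79 to 0.60. Between genotypes after Sham, *H19* counts were 271, 683 and 1071 in cSirt5KO hearts and 329, 477 and 964 in Control hearts, with a log2 fold change of 0.21 (adjusted p = 0.843).

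The comparison of TAC with Sham in Control hearts is the one by which *H19* was chosen, so its values are given as a description and without a test. *H19* averaged 258 ± 156 counts in Control TAC and 555 ± 242 in Control Sham hearts (SD, n = 6 each), a log2 fold change of −1.29 (standard error 0.42). Of the Control TAC hearts, 4 of 6 lay below every Control Sham heart. The genotype contrasts above share these Control hearts, so the higher *H19* of cSirt5KO TAC over Control TAC hearts is not independent of that choice. The genotype by TAC difference, which contains the same contrast, was 1.05 (standard error 0.59) for *H19*.

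**Figure D2:**
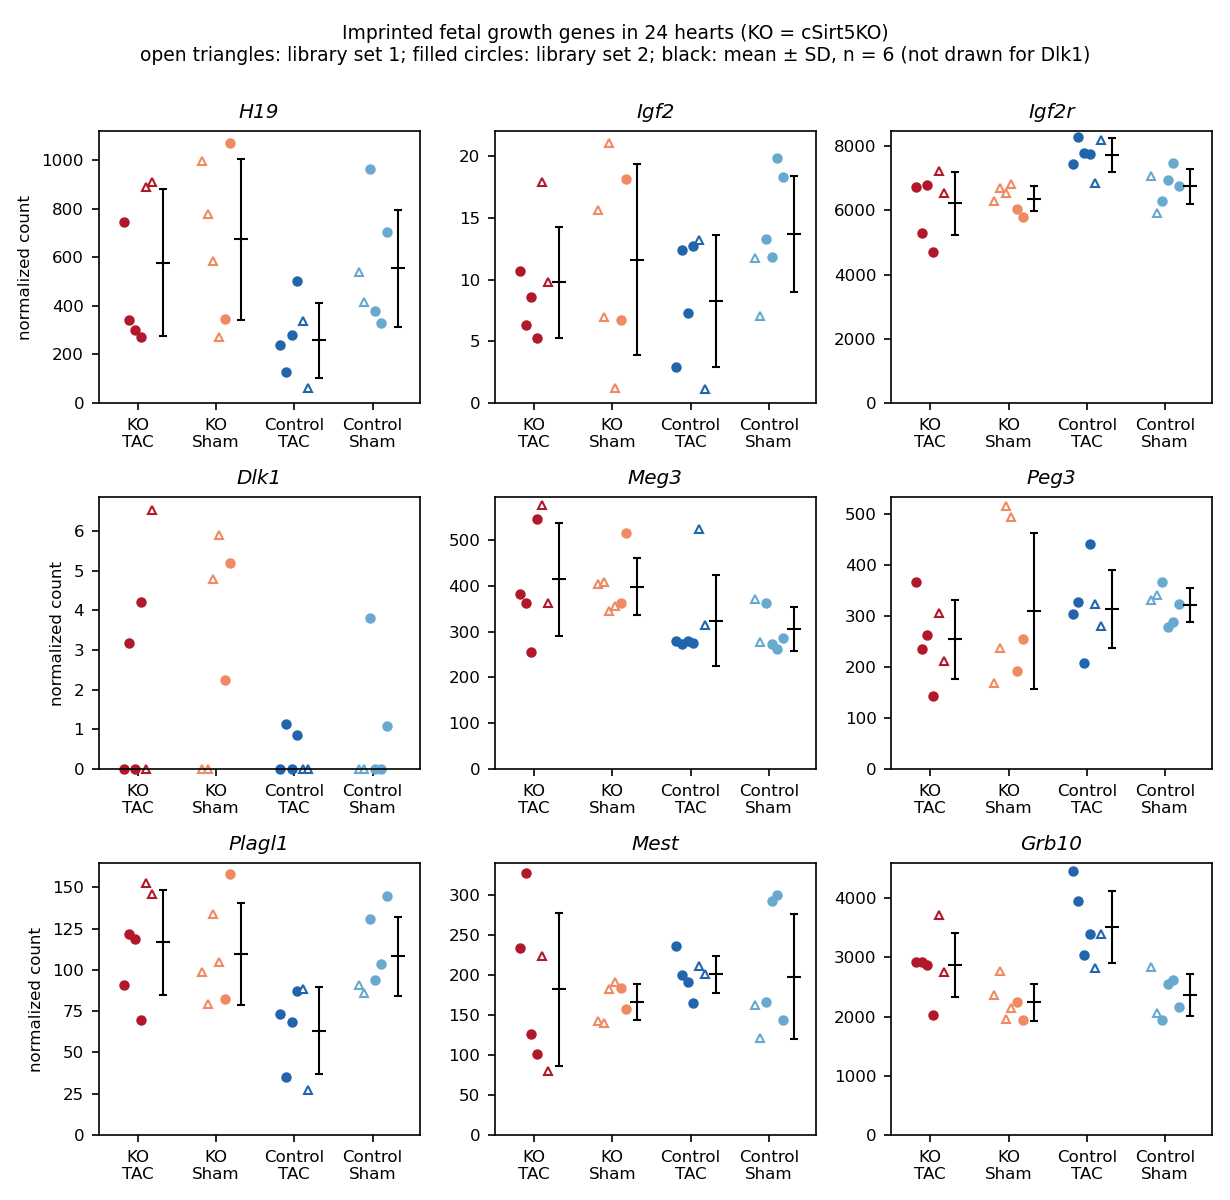
Normalized count (vertical axis from 0) of each of the 9 genes in every heart, by group (KO is cSirt5KO), with triangles for library set 1, circles for set 2 and black bars for the mean ± SD of 6 hearts (none for *Dlk1*). *H19* and *Plagl1* are lowest in the Control TAC group (means 258 and 63.2), whereas *Igf2r* and *Grb10* are highest there (means 7719 and 3515).

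*Igf2*, the fetal growth factor of the locus, was near the limit of detection, with 1 to 22 reads per library. It had a lowest, median and highest count of 5.28, 9.21 and 17.9 in cSirt5KO TAC, 1.18, 11.3 and 21.1 in cSirt5KO Sham, 1.13, 9.84 and 13.2 in Control TAC and 7.09, 12.6 and 19.8 in Control Sham hearts. All 4 ranges overlapped. The log2 fold changes were 0.03 for cSirt5KO TAC against cSirt5KO Sham, −0.50 for cSirt5KO Sham against Control Sham and 0.43 for cSirt5KO TAC against Control TAC, each with a standard error of 0.52 and none called. In the annotation *Igf2* overlaps *Igf2os* on the opposite strand, and use of strand in counting is not given in the sources used here, so the reads of *Igf2* and its antisense partner may not be fully separated.

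The log2 ratio of *H19* to *Igf2* removes what both share. It averaged 5.66 ± 0.49 in cSirt5KO TAC, 5.92 ± 0.80 in cSirt5KO Sham, 4.82 ± 0.89 in Control TAC and 5.21 ± 0.72 in Control Sham hearts (SD, n = 6 each). Between cSirt5KO TAC and Control TAC hearts it differed by 0.83, which did not pass a two-sided exact permutation test over all labelings (p = 0.0649, adjusted over 3 comparisons 0.195). The difference was −0.26 between cSirt5KO TAC and cSirt5KO Sham (exact p = 0.491, adjusted 0.491) and 0.71 between cSirt5KO Sham and Control Sham hearts (exact p = 0.139, adjusted 0.208). Both comparisons with Control hearts hold the *H19* values by which the gene was chosen. Their p-values are therefore descriptions and not independent tests.

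Within groups, hearts with more *H19* had more *Igf2*. After removal of the group means from log2(normalized count + 1), Pearson's r was 0.652 and Spearman's rho 0.60 over 24 hearts (permutation p within groups 0.00292 and 0.00603, adjusted over 3 relations 0.00876 and 0.0144). The relation rested on few hearts: without the 2 hearts farthest from the median of *H19*, r was 0.410 (permutation p = 0.0847). Within the library sets r was 0.852 over 10 hearts (permutation p = 0.0830) and 0.341 over 14 hearts (permutation p = 0.359).

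**Figure D3:**
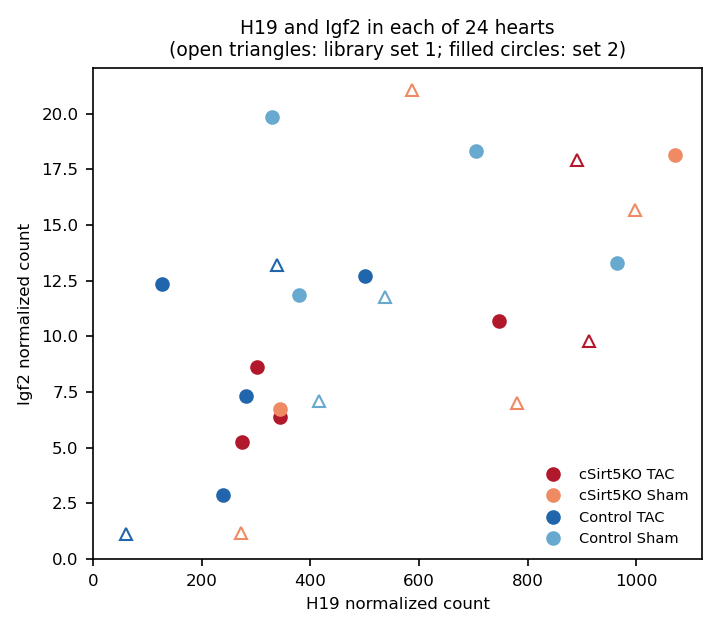
*Igf2* against *H19*, both as normalized counts from 0, one point per heart, coloured by group, with triangles for library set 1 and circles for set 2. The Control TAC heart with the lowest *H19* (61.2) also has the lowest *Igf2* (1.13), and the hearts with over 900 counts of *H19* all have 9.80 or more of *Igf2*.

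The genes whose log2 values followed *H19* most closely over the 24 hearts, among 10932 genes with a mean of at least 100, were *Aqp4*, the water channel aquaporin 4 (Pearson's r 0.830), *Wif1*, a secreted Wnt inhibitor (0.791), *Tmem164* (0.767), *Smtnl2* (0.755) and *Kcne1*, a potassium channel subunit (0.730). With group means removed the values were 0.616 to 0.747. For *Igf2* the closest were *Cpsf2*, a pre-mRNA cleavage factor (0.682), *H19* (0.641), *Sil1* (0.612), *Nmnat3* (0.606) and *Nt5c3* (0.594). These are descriptions over hearts that share library sets and groups.

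*Plagl1* (ENSMUSG00000019817), on the plus strand of chromosome 10 from 12936248 to 13007438 (GRCm39), like *H19* had its lowest mean in Control TAC hearts. Its lowest, median and highest counts were 69.6, 120 and 153 in cSirt5KO TAC hearts, against 27.2, 70.8 and 88.2 in Control TAC hearts. All but 1 of the cSirt5KO TAC hearts lay above every Control TAC heart. The difference of 0.95 on the log2 scale had a standard error of 0.26 and was called (1.94-fold, adjusted p = 0.0287, limma). These are the Control TAC hearts by which *H19* was chosen, and replicate 6 was the lowest of them for both genes. The p-value of *Plagl1* is therefore not independent of that choice. Each library held 24 to 183 reads of the gene, and Control TAC replicate 2 (34.9 counts) was again the second lowest of its group.

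*Plagl1* was less dependent on single hearts than *H19*. Leaving out each heart of the 2 groups in turn gave 0.74 to 1.09 on the log2 scale, with adjusted p from 0.0187 to 0.0891, so that all 12 fits kept the call. It was higher within both library sets, by 1.58 in set 1 (adjusted p = 0.298, 2 hearts against 2) and 0.64 in set 2 (adjusted p = 0.246, 4 against 4), with no call in either. In a fit of the 12 hearts of the 2 groups alone, neither *Plagl1* (adjusted p = 0.135) nor *H19* (0.191) was called, and the cause was not tested.

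**Figure D4:**
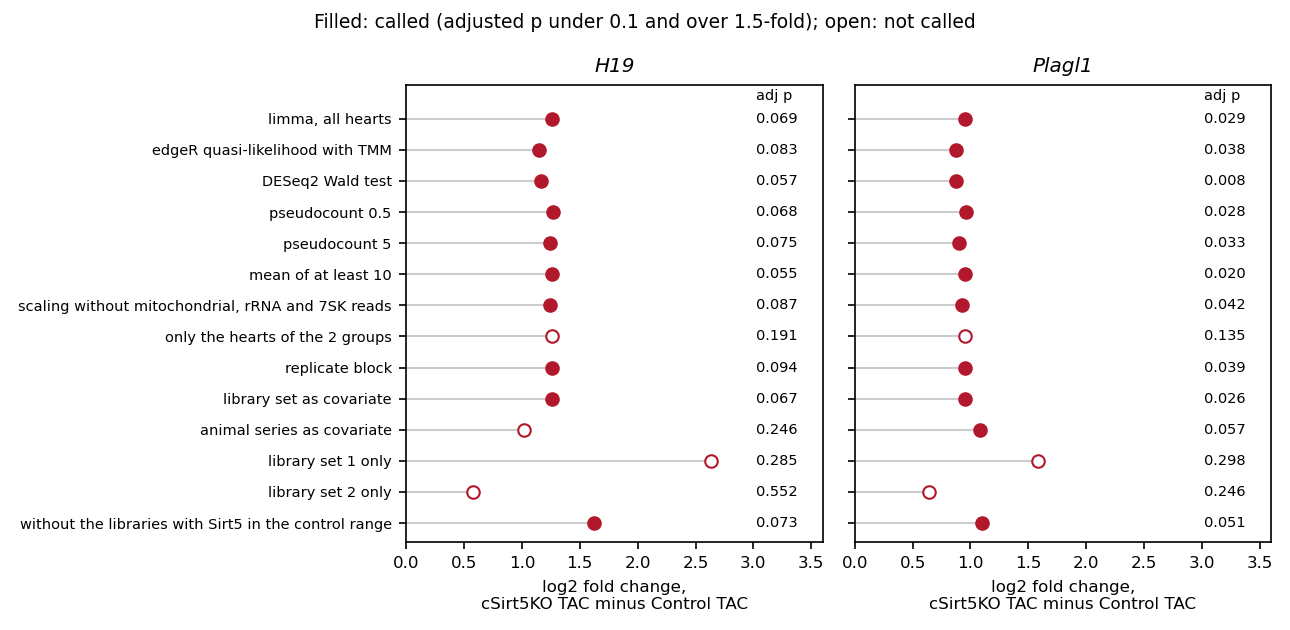
Log2 fold change of *H19* and *Plagl1* between cSirt5KO TAC and Control TAC hearts (horizontal axis) under each way of fitting (rows), with the adjusted p at the right; filled points are called. Every value is above 0, and the calls are lost within either library set and in the fit of 12 hearts for both genes, and for *H19* also with the animal-number covariate.

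Neither other tested comparison gave a call for *Plagl1*. Its log2 fold change was 0.09 (SE 0.26, adjusted p = 0.929) for cSirt5KO TAC against cSirt5KO Sham, where the ranges were 69.6 to 153 and 79.2 to 158. For cSirt5KO Sham against Control Sham it was −0.0024 (standard error 0.26), with ranges of 79.2 to 158 and 86.3 to 144. In Control hearts, as a description, *Plagl1* averaged 63.2 ± 26.2 after TAC and 108 ± 23.9 after Sham (SD, n = 6 each), a log2 fold change of −0.87, and none of the 6 Control TAC hearts exceeded the Control Sham median. The genotype by TAC difference was 0.96 (standard error 0.37).

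Markers of other cell types that differed between cSirt5KO TAC and Control TAC hearts are given beside these 2 genes. Of 8 skeletal muscle markers, *Tnni2* and *Pvalb* were called higher, the summed count was 79.2 to 163 in cSirt5KO TAC and 35.1 to 70.9 in Control TAC hearts, and *Myh1*, *Myh2*, *Tnnc2* and *Actn3* averaged under 5 counts. Only 5 of the 8 had log2 fold changes above 0, with a list median of 0.37 and a lowest value of −0.40. Of 6 macrophage markers *Cd68* was called higher, with summed counts of 6326 to 10406 in cSirt5KO TAC and 4124 to 8278 in Control TAC hearts. Among 5 smooth muscle markers *Acta2* was called higher (summed counts 5247 to 8163 in cSirt5KO TAC, 3932 to 10041 in Control TAC), while the other 4 had log2 fold changes below 0 and the list median was −0.18. Among 6 endothelial markers, all with log2 fold changes below 0, *Kdr* was called lower (summed counts 14538 to 26451 in cSirt5KO TAC, 20887 to 27824 in Control TAC). No marker of the cardiomyocyte, atrial cardiomyocyte, fibroblast, activated fibroblast, mesothelial, pericyte, adipocyte or Schwann lists was called in this comparison. Their median log2 fold changes were, in that order, 0.20, 0.79, 0.12, −0.66, 0.72, −0.22, 1.05 and 0.31. Above 0 were 7 of 8 cardiomyocyte, 5 of 6 atrial, 7 of 8 fibroblast and 1 of 6 activated fibroblast markers. So were 5 of 6 mesothelial, 0 of 5 pericyte, 4 of 5 adipocyte and 4 of 5 Schwann markers. The part of cell makeup in the *H19* and *Plagl1* values was not tested.

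*Igf2r* and *Grb10*, the brakes on IGF signalling, had their highest counts in Control TAC hearts. *Igf2r* (ENSMUSG00000023830, chromosome 17, 12901293 to 12988551, minus strand) had lowest, median and highest counts of 4717, 6642 and 7232 in cSirt5KO TAC and 6855, 7772 and 8294 in Control TAC hearts. Of the cSirt5KO TAC hearts, 5 of 6 lay below every Control TAC heart. The log2 fold change of −0.33 (SE 0.09, adjusted p = 0.0332, limma) was under the 1.5-fold limit, so *Igf2r* was not called, and within library sets it was −0.12 in set 1 and −0.43 in set 2. Without the 2 cSirt5KO TAC libraries whose *Sirt5* was not low it was −0.17 (adjusted p = 0.285).

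The log2 fold change of *Igf2r* was small in both other tested comparisons (−0.05 for cSirt5KO TAC against cSirt5KO Sham, −0.08 for cSirt5KO Sham against Control Sham). In Control hearts it averaged 7719 ± 523 after TAC and 6745 ± 560 after Sham, a log2 fold change of 0.20 given as a description. *Airn*, the paternal antisense RNA that silences *Igf2r* in *cis*, overlaps it on the opposite strand and averaged 257 counts. *Airn* had 140 to 282 counts in cSirt5KO TAC and 252 to 342 in Control TAC hearts, a log2 fold change of −0.49 (SE 0.15, adjusted p = 0.0446) that stayed under 1.5-fold and was not called. Whether strand was used in counting is not known here, so reads of the 2 may not be fully separated. *Slc22a3*, a transporter gene of the same domain, was not called between genotypes after TAC.

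*Grb10* (ENSMUSG00000020176, chromosome 11, 11880508 to 11988683, minus strand) is expressed from the maternal copy in most tissues. Its lowest, median and highest counts were 2030, 2902 and 3712 in cSirt5KO TAC hearts, against 1940, 2199 and 2778 in cSirt5KO Sham hearts. Of the TAC hearts, 4 of 6 lay above all Sham hearts, and the log2 fold change of 0.35 (SE 0.13, adjusted p = 0.240) was not called. Against Control TAC hearts (2820, 3399 and 4468) the cSirt5KO TAC counts gave a log2 fold change of −0.30 (adjusted p = 0.171). In Control hearts the description reads 3515 ± 607 after TAC and 2366 ± 358 after Sham, a log2 fold change of 0.57 (standard error 0.13), just under the 1.5-fold limit, with 5 of 6 TAC hearts above all Sham hearts.

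**Figure D5:**
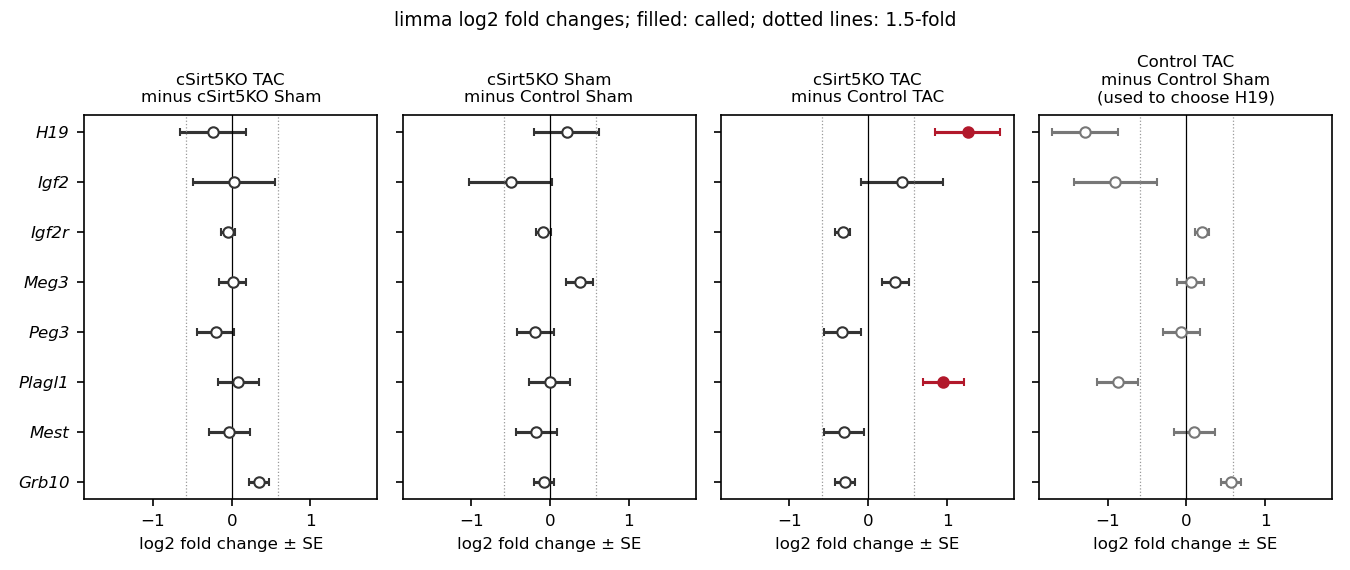
Log2 fold change ± standard error (horizontal axes) of 8 of the 9 genes in 4 comparisons, filled points being called and dotted lines marking 1.5-fold. Filled points appear only for *H19* (1.26) and *Plagl1* (0.95) in cSirt5KO TAC against Control TAC, and the fourth panel, by which *H19* was chosen, is a description.

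*Dlk1* and *Meg3* belong to another reciprocal pair, 77.6 kb apart on chromosome 12. *Dlk1* (109418749 to 109429262, plus strand) is paternally expressed and the noncoding RNA *Meg3* (109506884 to 109538160, plus strand) maternally expressed. *Dlk1* had 39 reads in all 24 libraries: 14 over cSirt5KO TAC, 18 over cSirt5KO Sham, 2 over Control TAC and 5 over Control Sham hearts, with 0 reads in 3, 2, 4 and 4 of the 6 libraries of these groups. No library held more than 6 reads, so no fold change is given, and limma called no difference.

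*Meg3* had lowest, median and highest counts of 254, 372 and 576 in cSirt5KO TAC, 345, 382 and 515 in cSirt5KO Sham, 272, 279 and 524 in Control TAC and 261, 282 and 372 in Control Sham hearts. All 6 cSirt5KO Sham hearts lay above the Control Sham median, yet the log2 fold change of 0.38 (SE 0.17, adjusted p = 0.266) was not called. The value was 0.34 after TAC (adjusted p = 0.263) and 0.02 for cSirt5KO TAC against cSirt5KO Sham. *Rian*, a noncoding RNA of the same domain that hosts small nucleolar RNAs, followed *Meg3* within groups (Pearson's r 0.564, Spearman's rho 0.562, n = 24, permutation p 0.0129 and 0.00958, adjusted 0.0194 and 0.0144). That r was 0.806 over the 10 hearts of set 1 (permutation p = 0.0472), 0.339 over the 14 of set 2 (permutation p = 0.411) and 0.375 without the 2 hearts farthest from the median of *Meg3* (permutation p = 0.137), so it too rested on those hearts. *Dlk1* and *Meg3* showed r = 0.0603 and rho = −0.0612 (permutation p = 0.801 and 0.786, adjusted 0.801 and 0.786).

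*Peg3* and *Mest* are expressed from the paternal copy. *Peg3* (ENSMUSG00000002265, chromosome 7, 6706891 to 6733430, minus strand) encodes a zinc finger protein, and *Mest* (ENSMUSG00000051855, chromosome 6, 30723546 to 30748464, plus strand) a hydrolase-like protein of the endoplasmic reticulum. *Peg3* counts were 142, 249 and 367 (lowest, median, highest) in cSirt5KO TAC, 168, 246 and 515 in cSirt5KO Sham, 208, 313 and 442 in Control TAC and 279, 327 and 366 in Control Sham hearts. The groups overlapped throughout, and the log2 fold changes of −0.21, −0.19 and −0.33 for cSirt5KO TAC against cSirt5KO Sham, cSirt5KO Sham against Control Sham and cSirt5KO TAC against Control TAC (standard error 0.23 each) were not called.

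*Mest* spread most in cSirt5KO TAC hearts, where its counts ran from 80.6 to 328 with a median of 176, against 166 to 236 with a median of 201 in Control TAC hearts. In Sham hearts the ranges were 140 to 191 in cSirt5KO and 122 to 301 in Control. Its 3 tested log2 fold changes lay between −0.30 and −0.03 (standard error 0.26), none called. *Mest* overlaps *Copg2* on the opposite strand, which averaged 1316 counts, so the 2 may not be fully separated.

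Over the 9 genes, 0 were called for cSirt5KO TAC against cSirt5KO Sham, where 0.672% of all genes were called. At an unadjusted p under 0.05, limma, edgeR and DESeq2 each found 1 of the 9 there, *Grb10*, where limma found 11.4% of all genes. For cSirt5KO Sham against Control Sham, 0 of the 9 were called by limma, edgeR or DESeq2, where limma called 2.03% of all genes, and *Meg3* alone was under 0.05 unadjusted, against 16.1% of all genes. For cSirt5KO TAC against Control TAC, *Plagl1*, *Igf2r* and *Grb10* were under 0.05 unadjusted by limma, edgeR and DESeq2, against 20.1% of all genes by limma. *H19* was under 0.05 too, as a description only, since it was chosen by these Control TAC hearts. The other genes share those hearts, and nothing is read from the count. The median log2 fold change of the 9 was −0.03, −0.08 and 0.34 for cSirt5KO TAC against cSirt5KO Sham, cSirt5KO Sham against Control Sham and cSirt5KO TAC against Control TAC, against −0.01, 0.02 and 0.00 over all genes. The 9 include *H19*, so the last of these medians is not independent of its choice. In the contrast used for choosing, 2 of the 9 and 7.03% of all genes passed the same limits, and for the genotype by TAC difference 0 of the 9 and 0.0908% of all genes did. The 2 groups overlapped for each of the 9 genes in all 4 comparisons. Non-overlap was seen in 0.891% of all genes for cSirt5KO TAC against cSirt5KO Sham, 2.45% for cSirt5KO Sham against Control Sham, 2.95% for cSirt5KO TAC against Control TAC and 5.25% for Control TAC against Control Sham.

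Neighbours in the same imprinted domains gave 1 call between cSirt5KO TAC and Control TAC hearts, where 3.25% of all genes were called. Nothing is read from that count. Of 13 measured partners, *Zim1*, a maternally expressed gene next to *Peg3*, was called lower in cSirt5KO TAC (17.9 to 52.3 counts) than in Control TAC hearts (27.2 to 112), by −0.85 on the log2 scale (adjusted p = 0.0928). That call was lost without any 1 of Control TAC replicates 1, 2, 3, 4 and 6 or cSirt5KO TAC replicates 3 and 4 (−0.90 to −0.65), and in 6 of 13 other settings. These were set 1 alone (−0.27, adjusted p = 0.926), the fit without the 2 libraries whose *Sirt5* was not low (−0.69, 0.320), the 12 hearts alone (0.223), the animal-number covariate (0.154), scaling without mitochondrial, ribosomal and 7SK reads (0.104) and the replicate block (0.101). No partner was called for cSirt5KO TAC against cSirt5KO Sham or for cSirt5KO Sham against Control Sham. Over all genes 0.672% and 2.03% were called there.

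Of 30 other imprinted genes, 4 were called higher and none lower in cSirt5KO TAC against Control TAC hearts, with a median of 0.02 over the list. Over all genes 1.93% were called higher and 3.25% in either direction, and nothing is read from the count. *Ndn*, which encodes a growth-suppressing protein of postmitotic neurons, had 168 to 223 counts in cSirt5KO TAC and 101 to 157 in Control TAC hearts without overlap, a log2 fold change of 0.71 (adjusted p = 0.00714). *Mcts2*, a retrogene within *H13*, likewise did not overlap (193 to 263 against 101 to 178 counts, log2 fold change 0.65, adjusted p = 0.0149). Such non-overlap was seen in 2.95% of all genes. *Kcnq1*, a cardiac potassium channel, was higher by 0.66 (adjusted p = 0.0112), and *Snrpn*, a splicing protein of the Prader-Willi region, by 0.59 (adjusted p = 0.00438), at the 1.5-fold limit itself. *Kcnq1* fell short of 1.5-fold without cSirt5KO TAC replicate 4 or 6 (0.58 each), and *Mcts2* without Control TAC replicate 5 (0.56) or without both libraries whose *Sirt5* was not low (0.53). Within set 1 none of the 4 was called, and within set 2 *Kcnq1* was not (0.56). *Snrpn* lost its call in 8 of 13 settings: edgeR (0.58), DESeq2 (0.57), a pseudocount of 5 (0.58), scaling without mitochondrial, ribosomal and 7SK reads (0.56), the animal-number covariate (0.56), set 1 (0.77, adjusted p = 0.303), set 2 (0.49) and without the 2 libraries whose *Sirt5* was not low (0.57). It was also lost without any 1 of Control TAC replicates 1, 2, 5 and 6 or cSirt5KO TAC replicates 2, 4 and 6 (0.53 to 0.58).

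In the IGF pathway, 27 genes were measured. Over all genes, 3.25% were called between cSirt5KO TAC and Control TAC hearts and 2.03% between cSirt5KO Sham and Control Sham hearts. Between cSirt5KO TAC and Control TAC hearts, *Igfbp4*, a binding protein that holds IGF away from its receptor, was higher (2886 to 4737 against 1585 to 3333 counts, log2 fold change 0.72, adjusted p = 0.0178). *Igfbp5*, a binding protein that attaches to matrix, was lower (1689 to 4683 against 3505 to 8752 counts, −0.91, adjusted p = 0.00930). Neither was called within set 1 (0.53 and −0.68). After Sham, cSirt5KO hearts had more *Igf1*, the postnatal growth factor of the family, than Control hearts (370 to 730 against 269 to 403 counts, 0.63, adjusted p = 0.0854), and more *Igfbp4* (0.63, adjusted p = 0.0676). With the animal-number range as a covariate these 2 Sham values were 0.27 and 0.18 and not called. Neither was called within set 1 (0.81 and 0.29), and *Igf1* also not within set 2 (0.34), with library set as a covariate (0.51) or with scaling without mitochondrial, ribosomal and 7SK reads (adjusted p = 0.133). The call of *Igf1* was lost without any 1 of Control Sham replicates 2 to 6 or cSirt5KO Sham replicates 2, 3, 4 and 6 (0.53 to 0.68), and that of *Igfbp4* without Control Sham replicates 4, 5 or 6 or cSirt5KO Sham replicates 3, 5 or 6 (0.45 to 0.63). Markers of other cell types also differed between cSirt5KO Sham and Control Sham hearts. All 6 atrial cardiomyocyte markers had log2 fold changes above 0 (median 3.24), with *Nppa* called and summed counts of 8451 to 56066 in cSirt5KO Sham and 1608 to 18445 in Control Sham hearts. Of 6 mesothelial markers (median 2.24) *Msln*, *Upk1b* and *Lrrn4* were called higher, of 5 adipocyte markers (median 2.83) *Adipoq*, of 5 Schwann cell markers (median 0.78) *Mbp* and of 6 macrophage markers (median 0.53) *C1qa* and *C1qb*, while the endothelial *Kdr* was called lower. The part of cell makeup in the Sham values was not tested. No pathway gene was called for cSirt5KO TAC against cSirt5KO Sham, where 0.672% of all genes were called. The list median was −0.02 there, 0.15 for cSirt5KO Sham against Control Sham and 0.02 for cSirt5KO TAC against Control TAC.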

How the data were processed

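Total RNA from the hearts of 24 male mice was made into directional libraries and sequenced. Per the submitters' processing notes and the study's methods, the authors trimmed reads with Trim Galore, aligned them with STAR to GRCm39 (mm39) and divided gene counts by DESeq2 size factors, keeping genes with at least 10 reads in total. The program that counted reads is not given in the sources used here. The authors deposited the quotients, in which each gene carries a signal value per heart, and dividing by the value of 1 read gave whole numbers for 100% of values (tolerance 0.001). The authors' own comparison columns hold mean values, log2 fold changes, test statistics and p-values, and were not used.

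The members and gene lists were chosen with earlier results of these data known. Groups came from the labels. In R 4.3.3, limma 3.58.1 was fitted with a mean-variance trend and 1 term per group to log2(normalized count + 1) of all 24 hearts and 24239 genes without a filter. Calls needed a Benjamini-Hochberg adjusted p under 0.1 and more than 1.5-fold. Alternatives were edgeR 4.0.16 and DESeq2 1.42.0 on the recovered reads, pseudocounts of 0.5 and 5, a mean of at least 10, scaling without mitochondrial, ribosomal and 7SK reads, 12 hearts only, a replicate block, library set and animal-number range as covariates, each set alone, and leaving out hearts. Fits were tested on simulated data. Named genes outside the 9 were those called with a mean of at least 20, at most 6 per list and comparison, and the 5 most like *H19* and *Igf2*. Ratios were compared by exact tests and correlations by 100000 permutations within groups (scipy 1.17.1, Python 3.11.15, numpy 2.4.6, pandas 2.3.3, matplotlib 3.10.9). P-values set differences or correlations against the spread between these hearts, which also differ in library set and animal-number range. Coordinates are those of GRCm39, with 24037 of the gene identifiers (99.2%) found in GENCODE, and sequences are RefSeq's on GRCm38.p6. *Usp29* was not analysed here.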

Additional observations from a re-analysis of the deposited data

Results flagged for a closer look

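Among the 36 groups of 6 hearts examined for the 9 genes, 3 held a heart far from the others by Dixon's criterion. Chance flags about 1 in 20 groups of normally distributed values, which counts need not be. *Meg3* was 515 normalized counts in cSirt5KO Sham replicate 6 and 524 in Control TAC replicate 5, each the highest of its group. *Dlk1* was 3.8 in Control Sham replicate 3, a value of 4 reads. In that group 4 of 6 libraries held 0 reads, so the rate of 1 in 20 does not hold there.

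For 2 genes outside the 9, the response to TAC differed between genotypes by limma's interaction term, which called 0.0908% of all genes. *Snrpn*, of the Prader-Willi region, averaged 551 ± 61.1 counts in cSirt5KO TAC and 490 ± 59.8 in cSirt5KO Sham hearts, against 369 ± 66.5 in Control TAC and 639 ± 103 in Control Sham hearts (SD, n = 6 each), a difference of 0.96 on the log2 scale (adjusted p = 0.0290). *Grb14*, an adaptor related to *Grb10*, averaged 3904 ± 564 in cSirt5KO TAC and 3750 ± 286 in cSirt5KO Sham hearts, against 2994 ± 476 in Control TAC and 4896 ± 547 in Control Sham hearts (SD, n = 6 each), a difference of 0.77 (adjusted p = 0.0290). With the animal-number range as a covariate the differences were 0.86 for *Snrpn* (adjusted p = 0.219) and 0.71 for *Grb14* (adjusted p = 0.268), and neither was called within a library set.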

How the results depend on the processing

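The count of the 9 genes called between cSirt5KO TAC and Control TAC hearts, 2 over all hearts with *H19* included, was 0 with the 12 hearts of the 2 groups alone, 0 in library set 1, 0 in set 2 and 1 with the animal-number covariate, and it ranged from 1 to 2 when single hearts were left out. In set 1 and set 2 the tests have fewer hearts, and the cause of the changes was not tested. The counts for the other 2 tested comparisons stayed at 0 in every alternative. The description of Control TAC against Control Sham had 2 genes past the limits, against 0 in set 1 and 1 in set 2, and from 0 (without Control TAC replicate 6) to 3 when hearts were left out. The genotype by TAC difference had 0 past the limits in every alternative, leaving out hearts included.

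The *H19* to *Igf2* ratio differences lay between −0.50 and −0.05, 0.47 and 0.95, and 0.52 and 1.06 on leaving out hearts, for cSirt5KO TAC against cSirt5KO Sham, cSirt5KO Sham against Control Sham and cSirt5KO TAC against Control TAC. Only the last passed 0.05, without Control TAC replicate 1 (1.06, exact permutation test, adjusted p = 0.0390). That comparison holds the Control TAC values by which *H19* was chosen, so its p-value is a description. The correlation of *H19* with *Igf2* lost its significance in set 1 (r = 0.852), set 2 (0.341) and without 2 hearts (0.410), as did that of *Meg3* with *Rian* in set 2 (0.339) and without 2 hearts (0.375). *Dlk1* with *Meg3* passed by Pearson's r in set 2 alone (0.713, permutation p = 0.0198) but not by Spearman's rho (0.505, permutation p = 0.151), on at most 6 reads per library. The planned correlation of *Peg3* with *Usp29* was not run.

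Replicate numbers were not taken as pairs, since the labels tie them to nothing shared and not every same-numbered pair correlated above 0.1. In both TAC groups, however, replicates 1 to 4 were of library set 2 and replicates 5 and 6 of set 1. Same-numbered hearts of these groups thus shared a set. Same-numbered hearts of cSirt5KO TAC and Control TAC had correlations of −0.04 to 0.47, with 4 of 6 above 0.1 and 3 of 6 correlating best with their own number. Above 0.1 were 3 of 6 for Control TAC and Control Sham and 0 of 6 in the other 2 comparisons. With the replicate block the count of the 9 called was still 2, and 753 of all genes were called against 787 without it. For the genotype by TAC difference the block gave 93 calls over all genes against 22, DESeq2 gave 268, a mean of at least 10 gave 37, the animal-number covariate 4, set 1 gave 1 and set 2 gave 0. For cSirt5KO TAC against cSirt5KO Sham, 163 genes were called by limma, 294 by DESeq2, 59 with 12 hearts, 727 with the animal-number covariate, 0 in set 1 and 20 in set 2. For cSirt5KO Sham against Control Sham, 491 were called over all hearts, 577 with 12 hearts, 26 with the animal-number covariate, 0 in set 1 and 1656 in set 2. For cSirt5KO TAC against Control TAC, 787 were called over all hearts, 424 with 12 hearts, 24 in set 1, 992 in set 2, 887 with library set as a covariate and 282 without the 2 libraries whose *Sirt5* was not low.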

Other observations

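*Nnat* and *Calcr*, imprinted genes below the mean of 20 used for naming, were called and are given here after their values were seen. *Nnat*, neuronatin, a small membrane protein expressed from the paternal copy, had 0 to 12.7 normalized counts (median 1.49) in cSirt5KO TAC and 3.38 to 34.6 (median 21.1) in cSirt5KO Sham hearts, a log2 fold change of −2.58 (adjusted p = 0.0607, limma). The call was not made by edgeR (adjusted p = 0.132), with the 12 hearts alone (0.193), with the animal-number covariate (0.145) or within set 1 (0.376) or set 2 (0.785), DESeq2 gave no adjusted p, and it was lost without any 1 of cSirt5KO TAC replicates 1, 3 and 5 or cSirt5KO Sham replicates 2 and 4 (adjusted p 0.105 to 0.172). In the same comparison the median log2 fold change was −3.24 over 6 atrial cardiomyocyte markers (*Mybphl* called lower), of which 1 was above 0, at 1.44. It was −1.76 over 6 mesothelial and −1.75 over 5 adipocyte markers, with 0 above 0 in either list. Over 5 Schwann markers it was −0.51, with 1 called lower and 0 above 0. The 6 activated fibroblast markers were all above 0 (median 0.86). The part of cell makeup in the *Nnat* value was not tested. In Control hearts it was 0 to 4.95 after TAC and 0.901 to 5.91 after Sham. *Calcr*, the calcitonin receptor, had 19 reads over the cSirt5KO Sham libraries, 2 of which had none, and 0 reads in every library of the other groups. It was called higher in cSirt5KO Sham than in Control Sham hearts (adjusted p = 0.0773), a call that rests on 19 reads. The atrial, mesothelial and adipocyte markers that were higher in the same hearts had median log2 fold changes of 3.24, 2.24 and 2.83, and their part in the *Calcr* value was not tested.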
